A study of Arabidopsis thaliana with 9 samples.

Results

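The subject is the messenger RNA of wild-type rosette leaves of Arabidopsis thaliana, given as absolute levels. The members are the 3 libraries whose titles name the wild type, of 9 libraries in all. The study measured mRNA in leaves of 3 genotypes with 3 libraries each: Col-0 as the wild type (WT), a line labelled as the knockout VQ28KO12 and a line labelled as the overexpressor VQ28OE9, 1 line of each kind. All plants were 30 days old, grown at 23 ± 2 °C with 13 h of light and 11 h of dark, and their rosette leaves were detached and taken without infection. Poly(A) RNA was selected and sequenced, and the sources used here name no hour of harvest. Nor do the labels say whether the 3 WT libraries came from separate plants, so an SD below measures how far these libraries lie apart and may hold technical variation alone. The lines VQ28KO12 and VQ28OE9 appear below only where their values stand beside a WT value. Since 1 genotype is described, nothing was tested between groups and no p-value is given.

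Levels are in FPKM, that is, sequenced fragments scaled by transcript length and by library size, as the authors deposited them. Because FPKM is scaled by length, genes can be set beside each other, and a share of summed FPKM is close to a share of transcripts rather than of sequence. A leaf is mostly mesophyll, the green tissue in which photosystems I and II turn light into reducing power and the Calvin cycle fixes carbon dioxide through Rubisco. Most proteins of this machinery are encoded in the nucleus, often by several near-copies of a gene, and are imported into the chloroplast. Leaves also have means of defence. These include glucosinolates with their myrosinases and the lipid hormone jasmonate, which is made from chloroplast membrane fatty acids. The response to jasmonate is held in check by JAZ repressor proteins.

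The WT libraries held 71023343, 67923024 and 64552605 deposited count units in libraries 1, 2 and 3. About 4 units stand for 1 fragment. Above 0 were 20827, 20956 and 20510 of the 33610 listed genes. Ribosomal RNA of nuclear genes took 0.0927%, 0.177% and 0.106% of the units. The other 6 libraries held 64845109 to 95223547 units.

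Markers of mesophyll, epidermis, veins and guard cells were present, those of trichomes were near 0, and most of those of other organs were at or near 0. The mesophyll genes RBCS1A, CAB3 and RCA summed to between 19085 and 20264 FPKM. Pollen markers (VGD1, PPME1, ACT4, ACT12) were all at 0 in all 3 libraries, as were the shoot meristem genes WUS and CLV3 (the third, STM, reached at most 0.0398 FPKM) and 4 of 5 seed markers (CRA1, CRU3, SESA3, OLEO1). The fifth seed marker, the albumin SESA1, stood at 1.42, 2.93 and 3.57 FPKM. The flower organ genes AP1, AP3, PI, AG and SEP3 together reached at most 0.217 FPKM. Of the root markers, CASP1, IRT1 and the myrosinase TGG4 were at 0, and the beta-glucosidase PYK10 stood at 2.1, 5.91 and 0.4 FPKM. Leaf cell types other than mesophyll were visible at lower levels. Epidermal markers (ATML1, PDF2, FDH and the wax enzyme CER6) summed to 473 to 751 FPKM and myrosin cell markers (TGG1, TGG2) to 1157 to 1338 FPKM. Phloem companion cell markers (SUC2, AHA3, FT) summed to 213 to 244 FPKM, but FT itself stood at only 0.483, 0.222 and 0.399 FPKM. Xylem markers (XCP1, XCP2, IRX3) summed to 29.7 to 54.8 FPKM. Guard cell markers (HT1, FAMA, MYB60, SLAC1, KAT1, with EPF1 at 0) summed to 15.2 to 18.2 FPKM. Trichome genes (GL1, GL2, GL3) reached at most 0.759 FPKM in sum, with GL1 at 0, and markers of dividing cells (CYCB1;1, CDKB2;1, KN) between 2.27 and 3.02 FPKM. Of the senescence markers, SAG12 was at 0, SAG13 stood at 5.65, 13.1 and 4.35 FPKM, and WRKY53 at 7.31, 5.88 and 3.63 FPKM. In a whole leaf, fewer cells of a type and less RNA per cell cannot be told apart.

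Most of the mRNA came from few genes. In each of the 3 libraries 15057 genes (44.8%) stood at 1 FPKM or more, and these are called expressed below. Another 11528 genes (34.3%) were listed at 0 in all 3. By mean FPKM, 8775 genes lay between 1 and 10, 6181 between 10 and 100, 915 between 100 and 1000, 84 between 1000 and 10000, and 3 at 10000 or above. The 10 most abundant held 12.7% ± 0.674 of summed FPKM (SD, n = 3), the 30 most abundant 24.6% ± 1.44, the 100 most abundant 40.7% ± 1.36 and the 1000 most abundant 69.3% ± 0.605. In libraries 1, 2 and 3, 208, 239 and 201 genes made up 50% of summed FPKM, and 4834, 4805 and 4604 genes made up 90%. The 100 most abundant genes held 34.2% ± 1.26 of the count units, which are not scaled by length.

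The 3 genes above 10000 FPKM encode the antenna and the carbon-fixing enzyme. LHCB1.3 (CAB1, AT1G29930, chromosome 1, 10478005 to 10479048, plus strand), a chlorophyll a/b-binding protein of the photosystem II antenna, stood at 21426, 18125 and 20246 FPKM in libraries 1, 2 and 3. It alone held 2.76% ± 0.218 of summed FPKM. LHCB1.5 (LHB1B2, AT2G34420, chromosome 2, 14522524 to 14523568, minus strand), another copy of the same antenna protein, stood at 15236, 12307 and 14302 FPKM. Library 2 was the lowest for both antenna genes. RBCS1A (AT1G67090, chromosome 1, 25048158 to 25049424, minus strand), a small subunit of Rubisco, stood at 10314, 10837 and 12164 FPKM, highest in library 3. The ranges of the 3 genes did not overlap.

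Of the 30 most abundant genes, 28 belong to photosynthesis and the other two, LOX2 and AOS, make jasmonate. The antenna of photosystem II was further represented by LHCB3 (6687, 5831 and 6870 FPKM), LHCB5 (5869, 4596 and 5449 FPKM), LHCB4.1 (4024, 3947 and 4311 FPKM), and by LHCB2.1 and LHCB2.2 with means of 4702 and 3834 FPKM. The antenna of photosystem I was carried by LHCA4 at 7529, 6171 and 7030 FPKM, with LHCA2, LHCA1 and LHCA3 at means of 5620, 5208 and 4521 FPKM. These antenna genes were lowest in library 2, as the LHCB1 copies were. Photosystem II itself was led by PSBR (9253, 9093 and 9613 FPKM) and by the oxygen-evolving proteins PSBO1 (5714, 4975 and 5664 FPKM) and PSBP-1 (4861, 4356 and 5030 FPKM). Photosystem I was led by PSAL (5249, 5086 and 5677 FPKM), followed by PSAE-1, PSAG, PSAD-1, PSAF and PSAO with means of 4226, 3953, 3693, 3647 and 3530 FPKM. Plastocyanin, the copper protein that carries electrons to photosystem I, came mostly from PETE2 (DRT112), whose 3677, 3625 and 3677 FPKM were the steadiest values among the 30, with an SD of 30.0 FPKM. Rubisco activase (RCA), which frees the enzyme's active site, stood at 5413, 5052 and 4377 FPKM. Several of these genes lie over another annotated gene in the deposited coordinates (LHCB1.5, PSBR, LHCA4 and LHCB3), and the sources used here do not say whether reads were counted by strand.

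**Figure D1:**
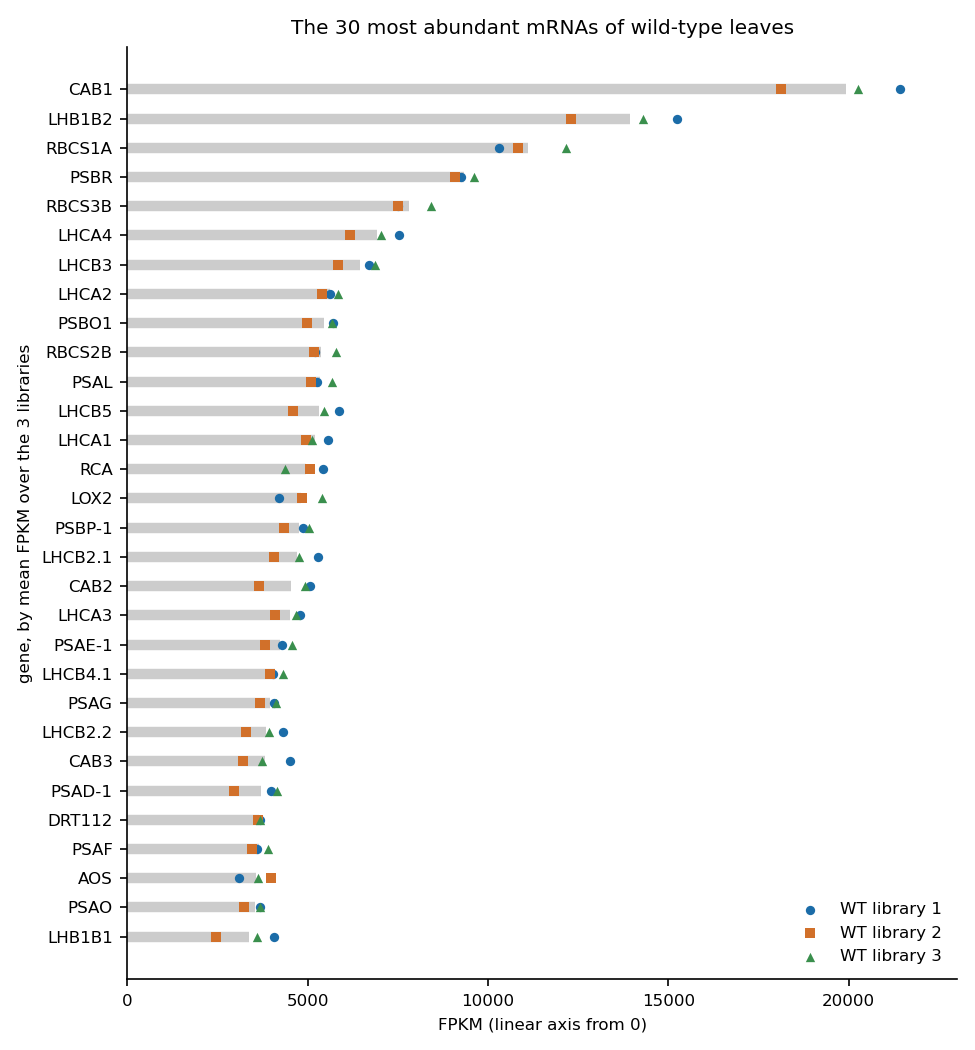
The 30 most abundant genes of WT leaves, on a linear FPKM axis, with 1 symbol per library and a grey bar to the mean. CAB1 (LHCB1.3), LHB1B2 (LHCB1.5) and RBCS1A stand above 10000 FPKM on average, and LOX2 and AOS are the genes of the 30 outside photosynthesis.

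The promoters of these genes can be read from the reference genome. The windows below run from 250 bases before to 50 after the transcript start of RefSeq's TAIR10.1 annotation, on the strand of the gene. Shown is every one of the 30 most abundant genes whose window holds the G-box CACGTG, a motif bound by basic leucine zipper and helix-loop-helix factors. Capitals mark CACGTG, the I-box GATAAG or its reverse CTTATC, and TATAAA on the gene's own strand in the last 50 bases before the start. The windows are chr1:29735702-29736001 (plus strand) for PSBR, chr3:17494984-17495283 (minus) for LHCA4, chr5:26568322-26568621 (plus) for PSBO1, chr5:15382022-15382321 (minus) for RBCS2B, chr4:14204012-14204311 (minus) for PSAE-1, chr5:208616-208915 (plus) for LHCB4.1 and chr5:17099546-17099845 (minus) for AOS.
PSBR: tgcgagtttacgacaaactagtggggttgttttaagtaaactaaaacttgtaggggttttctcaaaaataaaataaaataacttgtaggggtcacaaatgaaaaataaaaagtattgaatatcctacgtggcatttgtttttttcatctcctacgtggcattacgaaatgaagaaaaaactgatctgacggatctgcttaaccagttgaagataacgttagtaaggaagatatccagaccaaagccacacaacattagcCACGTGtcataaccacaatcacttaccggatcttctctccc
LHCA4: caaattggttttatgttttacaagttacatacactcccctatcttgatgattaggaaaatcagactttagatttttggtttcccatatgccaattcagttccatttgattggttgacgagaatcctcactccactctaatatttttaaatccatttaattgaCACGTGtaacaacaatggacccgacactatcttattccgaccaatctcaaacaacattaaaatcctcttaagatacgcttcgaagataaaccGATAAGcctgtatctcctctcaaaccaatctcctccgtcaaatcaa
PSBO1: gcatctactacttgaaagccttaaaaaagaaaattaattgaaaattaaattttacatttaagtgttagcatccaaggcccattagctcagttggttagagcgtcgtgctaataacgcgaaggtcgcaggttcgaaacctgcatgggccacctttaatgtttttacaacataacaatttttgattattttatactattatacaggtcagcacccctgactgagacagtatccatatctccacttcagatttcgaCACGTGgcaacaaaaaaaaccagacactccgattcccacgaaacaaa
RBCS2B: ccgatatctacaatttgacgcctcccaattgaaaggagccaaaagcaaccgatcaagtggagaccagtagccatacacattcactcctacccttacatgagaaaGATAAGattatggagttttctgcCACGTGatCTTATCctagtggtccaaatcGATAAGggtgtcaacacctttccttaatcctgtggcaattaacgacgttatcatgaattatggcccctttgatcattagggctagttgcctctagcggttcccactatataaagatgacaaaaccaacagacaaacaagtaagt
PSAE-1: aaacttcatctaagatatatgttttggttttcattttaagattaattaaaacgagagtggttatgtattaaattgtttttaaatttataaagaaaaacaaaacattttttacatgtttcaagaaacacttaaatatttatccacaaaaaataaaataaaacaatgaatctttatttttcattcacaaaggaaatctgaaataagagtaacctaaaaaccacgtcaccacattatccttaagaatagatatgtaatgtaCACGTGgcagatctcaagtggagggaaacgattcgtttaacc
LHCB4.1: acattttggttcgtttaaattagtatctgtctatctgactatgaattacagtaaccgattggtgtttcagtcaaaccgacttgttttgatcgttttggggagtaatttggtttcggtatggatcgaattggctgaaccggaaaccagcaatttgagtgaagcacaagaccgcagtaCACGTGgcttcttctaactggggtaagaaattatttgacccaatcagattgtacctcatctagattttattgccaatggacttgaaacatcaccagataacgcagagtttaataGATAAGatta
AOS: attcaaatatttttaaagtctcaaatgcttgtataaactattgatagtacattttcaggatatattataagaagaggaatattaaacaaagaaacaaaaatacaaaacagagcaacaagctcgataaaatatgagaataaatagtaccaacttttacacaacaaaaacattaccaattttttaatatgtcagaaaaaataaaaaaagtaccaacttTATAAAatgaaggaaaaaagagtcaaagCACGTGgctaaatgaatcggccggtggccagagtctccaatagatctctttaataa

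Of the 30 windows, 7 held CACGTG, 12 held GATAAG or CTTATC, and 3 (LHCA4, RBCS2B and LHCB4.1) held both. RBCS2B has its G-box between I-boxes, with 3 I-box matches in the window. AOS is the single gene of the 7 with TATAAA at the place searched. Matches elsewhere, as in RBCS2B shortly after the start, are left in lower case. Among the classes given here, both shares were lower at lower mRNA level. The classes leave out genes above 0 that were not expressed. CACGTG was in 29.0% of the windows of the 100 most abundant nuclear protein-coding genes, 15.6% of the next 900, 9.03% of the 13716 other expressed genes, 4.13% of the 6121 genes at 0 and 7.80% of all 26709 windows. GATAAG or CTTATC was in 38.0%, 18.6%, 15.1%, 14.1% and 14.8% of the same classes in the same order. TATAAA did not follow the level in this way, with 14%, 13.1%, 9.51%, 13.1% and 11.0%. Outside nuclear photosynthesis, 47 genes of the most abundant 100 remained, with CACGTG in 27.7% and the I-box in 25.5%. Among the cytosolic ribosomal protein genes CACGTG was in 2.96% and the I-box in 19.7% of 203 windows. A match is a description of these letters and not a bound site. The reference starts equal those of the deposited coordinates for 31.7% of genes and lie a median of 43.0 bases away, so another annotation would shift the windows.

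**Figure D2:**
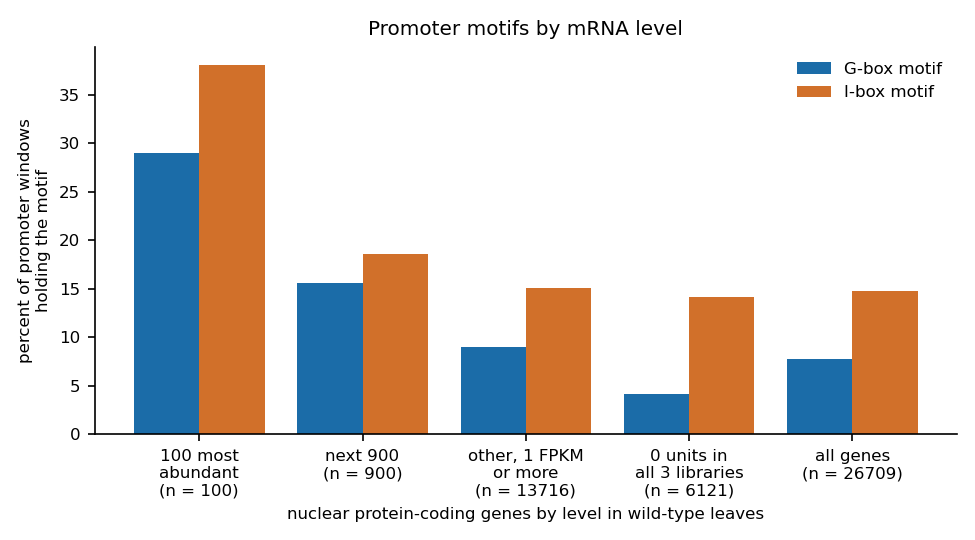
Percent of promoter windows (250 bases before to 50 after the start) that hold the G-box (blue) or the I-box in either orientation (orange), for nuclear protein-coding genes by their level in WT leaves. The 100 most abundant genes stand at 29.0% and 38.0%, and all genes at 7.80% and 14.8%. Genes above 0 units that were not expressed are counted under all genes only.

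The coding sequences of abundant genes also differed from the rest. The 100 most abundant had a median coding length of 784 bases with a median of 2 coding introns, against 1146 bases and 4 introns in the other expressed genes below the first 1000. G or C stood at 50.0% of their last codon positions by the median, against 41.7%. Genes at 0 were short too, with a median of 771 bases and 1 coding intron, and had G or C at 42.2% of last codon positions.

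By process, nuclear photosynthesis genes led. The 82 genes on the photosynthesis lists held 31.9%, 28.4% and 31.5% of summed FPKM in libraries 1, 2 and 3, a mean of 30.6% ± 1.90 (SD, n = 3). Of them 81 were expressed and 71 stood at 100 FPKM or more in each library. Light harvesting (19 genes) held 14% ± 1.31, the Calvin cycle (23) 5.78% ± 0.114, photosystem I (13) 4.94% ± 0.371, photosystem II (11) 4.57% ± 0.235, cytochrome b6f with plastocyanin and ferredoxin (12) 0.952% ± 0.0384, and the plastid ATP synthase (4) 0.344% ± 0.0173. Light harvesting moved most between libraries, at 15.2%, 12.6% and 14.3%, while the Calvin cycle stayed at 5.69%, 5.75% and 5.91%. By the compartment terms in the authors' table, genes annotated to the chloroplast made up 14.6% of all genes and 58.3% ± 1.45 of summed FPKM.

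Within the Calvin cycle, RBCS1A, RBCS3B, RBCS2B and the activase RCA stood above every other gene. After them came the aldolase FBA2 (2926, 3211 and 2799 FPKM), and then RBCS1B at a mean of 1141 FPKM. The glyceraldehyde-phosphate dehydrogenases GAPB (1021, 1016 and 1069 FPKM) and GAPA1 (1042, 900 and 970 FPKM) and the regulator CP12-1 (1011, 847 and 1024 FPKM) followed, with values that overlap. Phosphoglycerate kinase PGK1, phosphoribulokinase PRK and sedoheptulose-bisphosphatase SBPASE had means of 879, 623 and 441 FPKM. The cytochrome b6f Rieske protein PETC stood at 1003, 891 and 1072 FPKM, and the ATP synthase subunits PDE334, ATPC1 and ATPD at means of 1148, 679 and 653 FPKM. Neighbouring processes took smaller shares. Photorespiration (21 genes, led by SHM1 at 1468, 1235 and 1421 FPKM, with GGT1 and AGT) held 1.22% ± 0.0599, carbonic anhydrases 0.611% ± 0.0166, and chlorophyll synthesis 0.397% ± 0.0405. Chlorophyll synthesis was led by CRD1, a cyclase subunit, at 1146, 840 and 972 FPKM, and by the magnesium chelatase genes GUN5 and GUN4 with means of 377 and 228 FPKM. Starch and sucrose genes (76) held 0.237% ± 0.0023, with APL1, BAM1 and ADG1 at means of 164, 154 and 122 FPKM, and nitrogen and sulfur assimilation 0.417% ± 0.0172, led by the ATP sulfurylase APS1 at 1105, 1195 and 1001 FPKM. SERAT1;1 and SIR followed APS1 with means of 292 and 249 FPKM.

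Genes encoded in the organelles held 0.137% ± 0.0551 of summed FPKM in these poly(A)-selected libraries. The large subunit of Rubisco (ATCG00490) stood at 8.13, 15.5 and 9.56 FPKM. Plastid mRNAs as a rule carry no stable poly(A) tail, so these levels cannot be read beside those of nuclear genes. The highest organelle entries were ATCG00920 and ATCG01210, both listed at 90.3, 215 and 77.9 FPKM, and ATCG01180 at 82.9, 202 and 73.5 FPKM. None has a description in the table, so they are not read here as mRNA. Library 2 was the highest for each of these 3. It also had the largest ribosomal RNA share, which counts nuclear genes and leaves these entries out.

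The jasmonate lists, grouped as those of photosynthesis were, held 5.02%, 6.03% and 5.38% of summed FPKM for 54 genes. The mean was 5.48% ± 0.512 (SD, n = 3). No other lists were grouped, so this share is not ranked among processes. Of these genes 52 were expressed, 36 stood at 100 FPKM or more in each library and 14 were among the 100 most abundant. Their median level was 309 FPKM, against 0.598 FPKM over the 31701 genes on no list, of which 11171 were at 0. The synthesis list and the list of repressors and turnover were written after the levels had been seen, so their shares and their median describe chosen genes. In the libraries labelled VQ28KO12 the same genes held 4.88%, 5.36% and 4.23%, and in those of VQ28OE9 4.50%, 4.93% and 5.39%.

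Synthesis, in order of the pathway, began with the lipoxygenases, which oxidise linolenic acid. LOX2 (AT3G45140, chromosome 3, 16525410 to 16529352, plus strand) stood at 4201, 4844 and 5406 FPKM, LOX3 at 1048, 1619 and 1043 FPKM and LOX4 at 308, 404 and 169 FPKM. LOX2 was thus the leading chloroplast lipoxygenase in every library. LOX6, LOX5 and LOX1 were low, with 23.4, 20.3 and 24.0 FPKM in LOX6 and lower values in LOX5 and LOX1. Allene oxide synthase (AOS, chromosome 5, 17097595 to 17099395, minus strand), whose promoter is shown above, stood at 3104, 3995 and 3616 FPKM. Of the allene oxide cyclases, which set the ring, AOC2 stood at 2759, 3489 and 2836 FPKM and AOC1 at 2448, 3312 and 2506 FPKM. AOC3 (491, 698 and 355 FPKM) and AOC4 (45.4, 35.4 and 44.9 FPKM) were lower. The peroxisomal reductase OPR3 (AT2G06050) stood at 1742, 2123 and 486 FPKM, with library 3 far below the other two, and its ratio of 4.37 was the largest on the synthesis list. Downstream, the ligase OPCL1 stood at 688, 697 and 420 FPKM, the oxidase ACX1 at 498, 564 and 589 FPKM, and JAR1, which joins jasmonate to isoleucine, at 357, 666 and 438 FPKM. All 18 synthesis genes were expressed.

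Perception and repression genes were unequal. The receptor COI1 stood at 8.87, 7.75 and 7.55 FPKM, which is low beside most JAZ repressors, while the transcription factor MYC2 stood at 431, 439 and 306 FPKM and MYC4 at 5.34, 5.58 and 6.42 FPKM. COI1 lies over AT2G39930 in the deposited coordinates. Among repressors, JAZ9 (TIFY7, AT1G70700) stood at 1881, 1940 and 1867 FPKM, with an SD of 38.7 FPKM, and was the most abundant of them. JAZ6 stood at 691, 674 and 573 FPKM, JAZ2 (TIFY10B) at 437, 403 and 254 FPKM and JAZ1 at 345, 319 and 189 FPKM. At the low end JAZ11 stood at 9.12, 8.07 and 10.9 FPKM, and JAZ4 at 0.226, 0.273 and 0 FPKM. Library 3 was lowest for JAZ6, JAZ2 and JAZ1. Turnover enzymes were abundant as well: the amidohydrolase IAR3 stood at 846, 873 and 775 FPKM, the 2-oxoglutarate-dependent oxygenase AT5G05600 at 728, 981 and 1041 FPKM, and CYP94B1, which oxidises jasmonoyl-isoleucine, at 295, 415 and 290 FPKM. The oxygenase AT3G11180 was at 0, 0 and 0.0314 FPKM.

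Genes known to follow jasmonate were abundant too. Chlorophyllase CLH1 stood at 2430, 2726 and 2876 FPKM, arginase ARGAH2 at 1633, 1777 and 2858 FPKM, and the methyltransferase FAMT at 2055, 1910 and 1401 FPKM. The aminotransferases TAT3 (1482, 1647 and 1442 FPKM) and CORI3 (1078, 1322 and 2141 FPKM), the beta-glucosidase BGLU18 (770, 1032 and 1250 FPKM) and the vegetative storage protein VSP2 (625, 736 and 915 FPKM) followed. ARGAH2, CORI3, BGLU18 and VSP2 were highest in library 3, and FAMT was lowest there. The defensin PDF1.2, a marker of jasmonate with ethylene, was low at 21.0, 33.5 and 6.64 FPKM. Pathogenesis-related proteins and defensins as a list (75 genes) held 0.155% ± 0.0292, with 25 members at 0, and were led by the chitinase-like POM1, BGL2 (PR2) and AT4G36010 at means of 301, 151 and 123 FPKM.

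Glucosinolate genes (34) held 1.11% ± 0.0285 of summed FPKM and 32 of them were expressed. GGP1, which processes the glutathione conjugate, stood at 1618, 1683 and 1730 FPKM, although that enzyme is not limited to this pathway. In the indolic branch CYP83B1 stood at 783, 1118 and 700 FPKM and CYP79B3 at 320, 419 and 315 FPKM, both highest in library 2. In the aliphatic branch, the entry enzyme BCAT4 stood at 413, 347 and 388 FPKM, MAM1 at 305, 271 and 313 FPKM and CYP79F1 at 229, 186 and 223 FPKM, all lowest in library 2. The myrosinase TGG1, which cleaves glucosinolates, stood at 930, 808 and 841 FPKM. The nitrile specifier NSP1 and the epithiospecifier ESP had means of 273 and 46.8 FPKM.

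Glutathione S-transferases (57 genes) held 1.02% ± 0.0498, led by GSTU5 at 2655, 2771 and 2735 FPKM, with GSTF10 and GSTF9 at means of 771 and 561 FPKM. Antioxidant enzymes held 0.967% ± 0.069, led by the dehydroascorbate reductase DHAR1 at 2612, 2911 and 3488 FPKM, with GPX1 and CAT2 next at 609 and 304 FPKM on average. Metallothioneins, small metal-binding proteins, held 0.687% ± 0.000208, led by MT2B (2495, 2549 and 2751 FPKM), highest in library 3, and MT3 (2258, 2153 and 2024 FPKM), highest in library 1. Aquaporins (26 genes) held 0.86%, 1.03% and 1.18% in libraries 1, 2 and 3, led by PIP2;1 at 1942, 2202 and 2783 FPKM, with TIP1;2 (TIP2, AT3G26520) and TIP1;1 (GAMMA-TIP) at means of 1561 and 856 FPKM. Cold and water deficit genes (16) held 0.543%, 0.571% and 0.717%, led by the caleosin RD20 (1014, 814 and 1213 FPKM), KIN2 (584, 954 and 1146 FPKM) and RD22 (872, 414 and 803 FPKM). COR15A, which protects chloroplast membranes in the cold, stood at 175, 310 and 595 FPKM. Heat shock proteins (129 genes) held 0.615% ± 0.0452, led by the constitutive chaperone HSC70-1 at 981, 1219 and 1211 FPKM, with AT3G09440 and HSP81-3 at means of 839 and 238 FPKM.

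Genes of growth and housekeeping took a small share. The 203 cytosolic ribosomal protein genes held 1.34%, 1.49% and 1.5% of summed FPKM, a mean of 1.45% ± 0.093, although 179 of them were expressed. Their median was 46.3 FPKM and their highest members were AT1G02780 (protein L19e), AT2G34480 (L18ae) and SAC52 (L10e) at means of 217, 192 and 170 FPKM. The 29 plastid ribosomal protein genes held 0.729% ± 0.0412 with a median of 188 FPKM, with AT3G54210 (L17) and AT1G05190 (L6) at 303 and 265 FPKM on average. A plastid ribosomal gene was thus higher by the median than a cytosolic one. Translation factors held 0.546% ± 0.00528, led by the SUI1 protein AT5G54940 at 1297, 974 and 1192 FPKM, with AT5G60390 and the eIF5A gene FBR12 at means of 464 and 428 FPKM. Proteasome and ubiquitin genes held 0.335% ± 0.0417, histones 0.133% ± 0.0103, cell wall genes (403) 0.639% ± 0.0865 and lipid transfer proteins (121) 0.211% ± 0.0415. The histones HTB4, AT4G40040 and AT5G10980 had means of 179, 120 and 106 FPKM, the arabinogalactan protein AGP15, the inhibitor PGIP2 and AT5G62350 had 515, 371 and 238 FPKM, and the lipid transfer genes LP1, AT2G45180 and LTPG2 had 712, 146 and 108 FPKM. Among cell wall genes 171 and among lipid transfer proteins 66 were at 0 in all 3 libraries.

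Clock genes were low in these leaves, with 0.025% ± 0.00343 of summed FPKM over 16 genes. CCA1, a clock gene whose mRNA peaks around dawn, stood at 30.7, 16.2 and 14 FPKM, and LHY at 8.72, 9.52 and 5.87 FPKM. The evening genes TOC1 and GI stood at 3.67, 5.07 and 2.58 FPKM and at 3.58, 3.79 and 3.02 FPKM, and ELF4 at 0.413, 0 and 0.277 FPKM. The clock-controlled RNA-binding proteins GRP8 (CCR1) and GRP7 stood at 41.1, 42.4 and 34.8 FPKM and at 18.1, 18.4 and 11.4 FPKM. ZTL and TCP11 (AT5G08330), the next by level, had means of 23.0 and 21.2 FPKM.

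**Figure D3:**
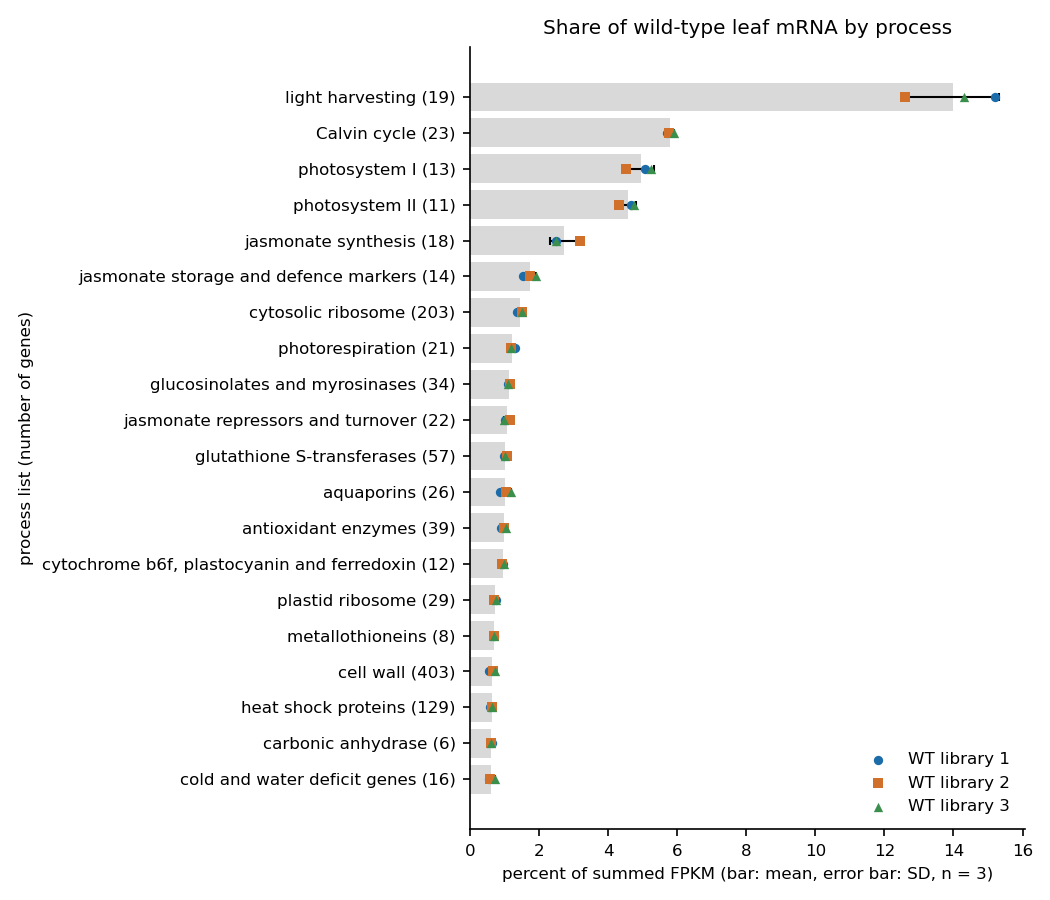
Percent of summed FPKM held by the 20 process lists with the largest shares, with the number of genes in brackets, the mean as a bar, the SD (n = 3) as an error bar and each WT library as a symbol. Light harvesting reached 14% and the largest list outside photosynthesis, jasmonate synthesis, 2.71%.

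Of the 100 most abundant genes, 13 were on none of the lists. They include ECS1 (1943, 2156 and 1845 FPKM), the thioredoxin TRX3 (1515, 1712 and 1446 FPKM), the nitrilase NIT1 (1204, 1297 and 2055 FPKM), the vitamin B1 synthesis gene THI1 (1061, 1207 and 1060 FPKM) and SAM-2, which makes S-adenosylmethionine. AT1G51400, annotated as a small photosystem II protein, and AT4G18440, annotated as an aspartase-like protein, stood at means of 1688 and 1814 FPKM without being on the lists. Among the 200 most abundant genes, 7 carry no description in the authors' table. The highest was AT1G67865 (chromosome 1, 25446289 to 25446737, minus strand) at 2073, 2856 and 1951 FPKM, followed by AT5G42530 (chromosome 5, 17004738 to 17005393, minus strand) at 1838, 1963 and 1665 FPKM and AT2G25510 (chromosome 2, 10856372 to 10857156, plus strand) at 1277, 1537 and 1194 FPKM. These 3 were highest in library 2. RefSeq also lists them as uncharacterized proteins. AT4G01150, a CURVATURE THYLAKOID 1A-like protein in RefSeq, stood at 533, 507 and 1112 FPKM.

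Paralogues, genes that arose by duplication, differed in level, widely in some families. In 34 families with 154 members, 24 families had 1 member with over 50% of the summed FPKM. A family of 2 members, such as plastocyanin, has such a member unless both are equal, so this count alone does not measure wide differences. In best matching pairs over the whole genome, described below, the median difference was 2.22-fold where both members were expressed. A member is called silent under 1 FPKM in each library and abundant at 100 FPKM or more in each. Of the families, 27 had an abundant member, 8 a silent one and 6 both. The 6 were ferredoxin, glycolate oxidase, glutamine synthetase, myrosinase, the plasma membrane proton pump and actin. There were 15 silent members, of which 8 were at 0 units in all 3 libraries.

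The Rubisco small subunit family was led by RBCS1A with 43.7% of its FPKM. RBCS3B stood at 7516, 7490 and 8408 FPKM, RBCS2B at 5198, 5166 and 5771 FPKM and RBCS1B, the lowest, at 1006, 1270 and 1149 FPKM. RBCS1A exceeded RBCS1B 9.73-fold by the means. RBCS3B, RBCS2B and RBCS1B lie side by side on chromosome 5 and their coding sequences are 96.7% to 97.3% identical, with a longest identical run of 233 bases between RBCS3B and RBCS1B and of 44 bases between RBCS1A and RBCS3B. The sources used here do not say how reads that fit several copies were divided, so the split within the chromosome 5 cluster is uncertain. The stretch of 60 coding bases, positions 16 to 75, in which the copies differ most is shown next, and capitals mark the 15 positions at which they are not all alike.
RBCS1A: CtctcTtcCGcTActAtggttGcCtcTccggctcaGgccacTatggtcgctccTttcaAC
RBCS3B: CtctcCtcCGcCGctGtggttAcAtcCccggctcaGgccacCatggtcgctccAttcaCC
RBCS2B: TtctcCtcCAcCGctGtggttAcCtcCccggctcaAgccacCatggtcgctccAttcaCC
RBCS1B: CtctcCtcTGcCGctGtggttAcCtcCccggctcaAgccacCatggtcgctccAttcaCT

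The LHCB1 antenna family was led by LHCB1.3 and LHCB1.5, with 43.7% and 30.6% of its FPKM. LHCB1.1 (CAB2) stood at 5074, 3660 and 4914 FPKM, LHCB1.2 (CAB3) at 4502, 3197 and 3723 FPKM and LHCB1.4 (LHB1B1), the lowest, at 4070, 2459 and 3605 FPKM. All 5 copies were lowest in library 2. LHCB1.1, LHCB1.2 and LHCB1.3 lie within a stretch of chromosome 1 and are 95.6% to 96.4% identical, and LHCB1.4 and LHCB1.5 lie on chromosome 2 and are 92.7% identical. LHCB1.3 and LHCB1.1 share an identical run of 119 bases, so the split within each cluster is uncertain. The 60 coding bases with the most differences begin at position 208 in the copies of chromosome 1, and the same 15 capitals distinguish the copies.
LHCB1.3: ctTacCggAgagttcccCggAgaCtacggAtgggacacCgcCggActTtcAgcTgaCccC
LHCB1.5: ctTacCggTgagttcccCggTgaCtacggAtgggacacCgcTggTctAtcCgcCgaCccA
LHCB1.1: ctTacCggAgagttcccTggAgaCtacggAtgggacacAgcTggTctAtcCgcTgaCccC
LHCB1.2: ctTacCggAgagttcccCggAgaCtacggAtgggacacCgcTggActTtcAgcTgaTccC
LHCB1.4: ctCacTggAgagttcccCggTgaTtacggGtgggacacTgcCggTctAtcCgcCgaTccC

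In the 3 LHCB2 copies, LHCB2.1 led with 45.8% (5289, 4056 and 4761 FPKM), LHCB2.2 is 96.6% identical to it, and LHCB2.3 was lowest at 1829, 1357 and 2002 FPKM. Of the 3 pairs of photosystem subunits among the families, each had both members abundant. PSBO1 (76.1% of its pair) stood over PSBO2 at 1719, 1574 and 1846 FPKM, PSAD1 (69.5%) over PSAD2 at 1826, 1222 and 1815 FPKM, and PSAE1 (83.5%) over PSAE2 at 871, 754 and 885 FPKM. Outside the families, PSBP-1 stood far above PSBP-2, which had 10.2, 4.95 and 10.2 FPKM. Plastocyanin was one-sided too: PETE2 held 93.8%, and PETE1 stood at 211, 210 and 308 FPKM. Of the ferredoxins, electron carriers after photosystem I, FD2 (500, 442 and 678 FPKM) and FD1 (403, 352 and 426 FPKM) were abundant, FD3, the form typical of roots, stood at 12.8, 18.0 and 22.3 FPKM, and FD4 was at 0. The leaf ferredoxin-NADP reductases FNR1 (745, 635 and 764 FPKM) and FNR2 held 72.7% and 26.4%, the root-type RFNR1 and RFNR2 under 1%, with RFNR2 at 3.25, 3.40 and 3.77 FPKM.

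Enzymes of carbon metabolism showed wide spans. Among 8 aldolases, FBA2 held 70.7%, and the lowest, FBA7, stood at 2.99, 2.52 and 2.54 FPKM, which is 1110-fold below FBA2 by the means. FBA1, FBA5, FBA8, FBA3, FBA6 and FBA4 lay between, at means of 735, 198, 130, 95.1, 66.3 and 9.44 FPKM. The plastid dehydrogenases GAPB, GAPA1 and GAPA2 held nearly all of their family, with GAPCP2 and GAPCP1 at 4.57 and 2.11 FPKM on average and GAPCP1 lowest at 1.83, 2.28 and 2.23 FPKM. CP12-1 held 71.0%, CP12-2 had a mean of 371 FPKM, and CP12-3 stood at 19.2, 21.7 and 23.9 FPKM. Of 6 beta carbonic anhydrases, BCA1 (3430, 3269 and 3418 FPKM) held 76.4% and BCA2 21.8%, BCA4, BCA5 and BCA6 had means of 47.3, 22.9 and 8.16 FPKM, and BCA3 was lowest at 2.88, 5.36 and 5.22 FPKM. Glycolate oxidase, the peroxisomal enzyme of photorespiration, came from GOX1 (739, 742 and 636 FPKM) and GOX2 (254, 249 and 223 FPKM), which are 92.4% identical neighbours. HAOX2 and HAOX1 had means of 4.47 and 3.06 FPKM, and GOX3 was silent at 0.0305, 0.4 and 0.331 FPKM. The catalases CAT2 (300, 345 and 267 FPKM) and CAT3 (245, 347 and 259 FPKM) overlapped in their values, while CAT1 stood at 8.26, 11.2 and 15.4 FPKM. Sucrose synthases were low throughout: SUS1 stood at 25.0, 24.8 and 40.6 FPKM, SUS3, SUS5 and SUS6 at means of 2.24, 1.22 and 0.952 FPKM, SUS4 at 0.523 FPKM and SUS2, the lowest, at 0.181, 0.0409 and 0 FPKM.

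For nitrogen, the plastid glutamine synthetase GLN2 (828, 686 and 886 FPKM) held 81.2% of its family. The cytosolic GLN1;2, GLN1;1, GLN1;3 and GLN1;4 had means of 128, 38.4, 12.9 and 5.60 FPKM, and GLN1;5 was at 0. The ferredoxin-dependent glutamate synthase GLU1 (289, 224 and 255 FPKM) held 89.0%, GLT1 had a mean of 28.0 FPKM and GLU2 was lowest at 4.27, 4.0 and 2.40 FPKM. Nitrate reductase came from NIA2 (47.8, 57.2 and 23.5 FPKM) over NIA1 (19.5, 19.6 and 20.9 FPKM), so the pair was close in library 3 and apart in the other two. Of the protochlorophyllide oxidoreductases, PORC (107, 80.5 and 106 FPKM) led PORB (51.1, 35.6 and 46.5 FPKM), and PORA, the form of etiolated seedlings, stood at 1.27, 1.52 and 0.824 FPKM.

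In defence families, PAL1 (354, 547 and 451 FPKM) and PAL2 (333, 538 and 315 FPKM), which open the phenylpropanoid pathway, overlapped, with PAL4 at a mean of 9.07 FPKM and PAL3 lowest at 2.15, 1.84 and 1.79 FPKM. The shoot myrosinases TGG1 and TGG2 (407, 349 and 325 FPKM) made up the whole of their family, and the root forms TGG4 and TGG5 were at 0. VSP2 held 71.9% against VSP1 at 248, 287 and 353 FPKM. Metallothioneins ran down from MT2B and MT3 to MT2A and MT1C at means of 174 and 35.7 FPKM, with MT1A at 5.92, 1.72 and 9.47 FPKM, and MT1A lies over AT1G07590.

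Transport families had several abundant members. Among PIP1 aquaporins, PIP1;4 (345, 367 and 686 FPKM) held 37.8%, PIP1;2, PIP1;1 and PIP1;3 had means of 349, 264 and 95.4 FPKM, and PIP1;5 was lowest at 67.0, 51.8 and 56.7 FPKM. Among PIP2 aquaporins, PIP2;1 held 66.2%. PIP2;3, PIP2;6, PIP2;2 and PIP2;7 had means of 569, 260, 248 and 94.9 FPKM, PIP2;5 and PIP2;4 of 3.25 and 2.95 FPKM, and PIP2;8 was lowest at 2.48, 2.3 and 2.03 FPKM. The proton pumps AHA3 (103, 119 and 111 FPKM) and AHA1 (108, 106 and 104 FPKM) could not be ranked by these libraries, since their values overlap. AHA2, AHA11, AHA5 and AHA8 had means of 41.1, 7.09, 2.66 and 1.94 FPKM, AHA10, AHA4 and AHA7 were silent at 0.195, 0.185 and 0.0521 FPKM, and AHA6 and AHA9 were at 0.

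Actin and beta-tubulin had no member with over 50% of their FPKM, while elongation factor 1 alpha and polyubiquitin each had one, with 51.9% and 52.3%. Of the actins, ACT7 (190, 213 and 211 FPKM), ACT2 (170, 177 and 137 FPKM) and ACT1 led, with ACT8, ACT3 and ACT11 at means of 67.2, 11.3 and 9.56 FPKM, and the pollen actins ACT4 and ACT12 at 0. Of the beta-tubulins, TUB2 (72.5, 61.3 and 62.4 FPKM) held 19.8%, and is 97.6% identical to its neighbour TUB3, so the split between them is uncertain. TUB4, TUB6, TUB8, TUB7, TUB9 and TUB5 had means of 57.9, 52.0, 37.7, 27.7, 24.6 and 7.29 FPKM, and TUB1 was silent at 0.225, 0.268 and 0.282 FPKM. The elongation factor 1 alpha gene A4 (AT5G60390) stood at 426, 516 and 452 FPKM. A3, A2 and A1 (AT1G07920, AT1G07930 and AT1G07940) are 98.8% to 99.6% identical, so the 42.0, 138 and 119 FPKM listed for A1 are uncertain. Polyubiquitin is uncertain in the same way: UBQ11 was listed at 861, 347 and 732 FPKM and UBQ10 at 156, 159 and 398 FPKM, with UBQ14, UBQ3 and UBQ4 at means of 211, 93.1 and 48.4 FPKM and UBQ4 lowest at 49.1, 47.9 and 48.3 FPKM.

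Light receptors were all expressed at low to moderate levels. Of the phytochromes, PHYB (30.6, 38.4 and 28.1 FPKM) held 49.2%, PHYA, PHYD and PHYE had means of 16.4, 7.53 and 4.96 FPKM, and PHYC was lowest at 5.15, 4.42 and 4.06 FPKM. Among the blue light receptors, CRY1 stood at 44.8, 44.5 and 46.6 FPKM, PHOT2 and CRY2 at means of 32.4 and 22.2 FPKM, and PHOT1 at 24.8, 18.2 and 22.0 FPKM. PHOT1 and CRY2 overlapped.

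**Figure D4:**
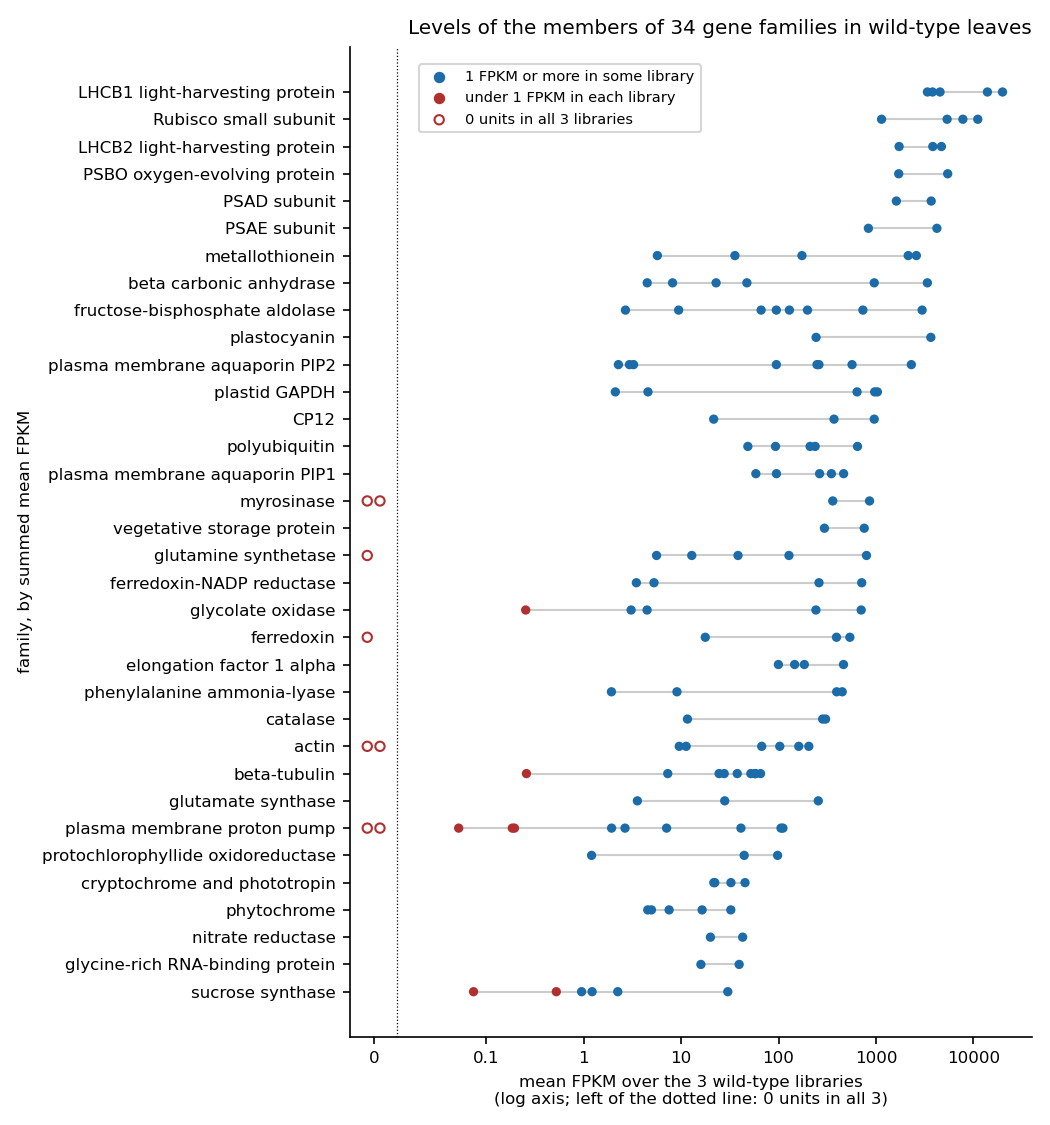
Mean FPKM of each member of the 34 families over the 3 WT libraries on a log axis, 1 point per gene. Red marks members under 1 FPKM in each library, and open red circles left of the dotted line mark the 8 members at 0 units in all 3.

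Best matching pairs over the whole genome gave a wider view. Coding sequences that are each other's best match, at 80% identity or more over at least 80% of the longer one, formed 2250 pairs. Both members were expressed in 1113 pairs (49.5%), 1 was expressed and the other silent in 380 (16.9%), and both were silent in 588 (26.1%). Where both were expressed, the higher exceeded the lower by a median of 2.22-fold. The 727 pairs that lie within 5 genes of each other had both members expressed in 30.0% and both silent in 43.1%, against 58.8% and 18.1% of the 1523 pairs farther apart. Of the 232 pairs of at least 95% identity, both members were expressed in 36.6%, 1 was expressed and the other silent in 5.60%, and both were silent in 50.4%. The 2018 pairs at lower identity had 50.9%, 18.2% and 23.3% in the same order, and how reads were divided between such copies was not tested.

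In 19 pairs an abundant gene faced a silent copy. The nitrilase NIT1 (AT3G44310, chromosome 3, 15986864 to 15989103, plus strand) stood at 1204, 1297 and 2055 FPKM, while its neighbour NIT2 stood at 0.108, 0.501 and 0.34 FPKM at 91.2% coding identity. The nitrile specifier NSP1 stood at 254, 271 and 294 FPKM beside NSP3 at 0. The malic enzyme NADP-ME2 stood at 524, 637 and 401 FPKM, and NADP-ME3 on the same chromosome was at 0. Glutathione transferase GSTF2 stood at 261, 251 and 129 FPKM and GSTF3 at 0.37, 0.372 and 0.244 FPKM, at 94.5% identity. CYT1, TIP2;2, GSTU13 and LACS4 each faced a copy at 0, and PLDALPHA1 (124, 168 and 137 FPKM) faced PLDALPHA2 at 0.115, 0.11 and 0.0984 FPKM. Also among the 19 were ribosomal protein genes: AT5G02960 (protein S23) stood at 105, 118 and 123 FPKM beside AT3G09680 at 0, at 90.2% identity. In all, 18 of the 203 cytosolic ribosomal protein genes were listed at 0, and how far a listed 0 depends on the division of reads between copies was not tested.

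Most genes agreed between the 3 libraries. Of 10427 genes with a mean of at least 5 FPKM, 78.7% differed by less than 1.5-fold between the highest and the lowest library, and the median ratio was 1.26. At least 2-fold was reached by 676 genes and at least 4-fold by 85, which is 0.815%. For 9 of the 85 the lowest library lay under 12 units, about 3 fragments, and the ratio is a lower bound. By the same rule 45 of 10658 genes (0.422%) passed 4-fold between the VQ28KO12 libraries and 70 of 10542 (0.664%) between the VQ28OE9 libraries. Among the lists with no gene past 4-fold were several of photosynthesis and housekeeping, beside others such as antioxidant enzymes (32 genes) and heat shock proteins (59). None of 19 light harvesting, 23 Calvin cycle, 21 photorespiration, 28 plastid ribosome or 46 proteasome and ubiquitin genes passed 4-fold. With 0.815% over all genes, lists of this size say little by holding none. Their median ratios lay between 1.14 and 1.23, against 1.26 over all genes. Other lists of photosynthesis and housekeeping held some. Past 4-fold were 2 of 55 translation factors, 1 of 172 cytosolic ribosomal protein genes and 1 of 10 genes of cytochrome b6f, plastocyanin and ferredoxin. Their median ratios were 1.2, 1.21 and 1.22. The lists with the largest median ratios, beside ribosomal RNA and organelle genes, were lipid transfer proteins and cold and water deficit genes, both at 1.84.

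Among the 15 genes with the largest ratios were ribosomal RNA genes, genes that lie over others and genes with neither property. The 18S ribosomal RNA gene AT2G01010 stood at 172, 311 and 1.02 FPKM, a ratio of 305, and its neighbours AT2G01021 (45.8, 114 and 1.1 FPKM) and AT2G01020 (16, 28.9 and 0.862 FPKM) were low in library 3 with it. The ribosomal RNA gene AT3G41768 stood at 328, 641 and 572 FPKM, not low in library 3, and AT3G41979 had a mean of 38.2 FPKM. Reads of such near-identical copies can be listed under one or another, and these entries are uncertain. AT5G01215 (26.5, 0 and 0 FPKM), AT1G73602 (14.4, 0 and 13.2 FPKM), AT1G24996 (31, 0.179 and 28.3 FPKM), AT5G67488 (0, 10.5 and 15.0 FPKM), AT1G36730 (1.08, 40.3 and 0.462 FPKM) and AT2G27080 (0.376, 22.5 and 28.6 FPKM) each lie over another gene in the deposited coordinates. Their ratios, at least 293, 153, 80.6 and 58.3 for the first 4 and 87.1 and 75.9 for the last 2, stand beside that overlap, and its part in them was not tested. Genes that overlap another made up 24.7% of the 85 and 17.2% of the 10427. AT1G59359, a ribosomal protein gene (15.7, 0 and 4.34 FPKM), and AT1G17990 (10.9, 9.08 and 0 FPKM) had ratios of at least 100 and 91.8 with no overlap. AT1G59359 stood at 0, 7.14 and 0.0417 FPKM in the VQ28KO12 libraries and at 17.6, 0 and 20.4 FPKM in those of VQ28OE9. AT1G17990 differed by 1.36-fold and 1.19-fold between the libraries of those lines. Whether reads of either gene were divided with other copies was not tested.

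The rest of the 15 genes with the largest ratios were transcription factors and lipid transfer-like genes. BHLH100 stood at 13.7, 10.2 and 0.218 FPKM and bHLH38 at 14.8, 16.6 and 0.527 FPKM, 62.9-fold and 31.4-fold. Both encode transcription factors of the iron deficiency response, and both were low in library 3. The lipid transfer-like genes AT4G12490 (0.0661, 27.8 and 0.143 FPKM, at least 132-fold) and EARLI1 (0.187, 16.1 and 0.544 FPKM, 85.9-fold) lie near each other on chromosome 4, and both were high in library 2.

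**Figure D5:**
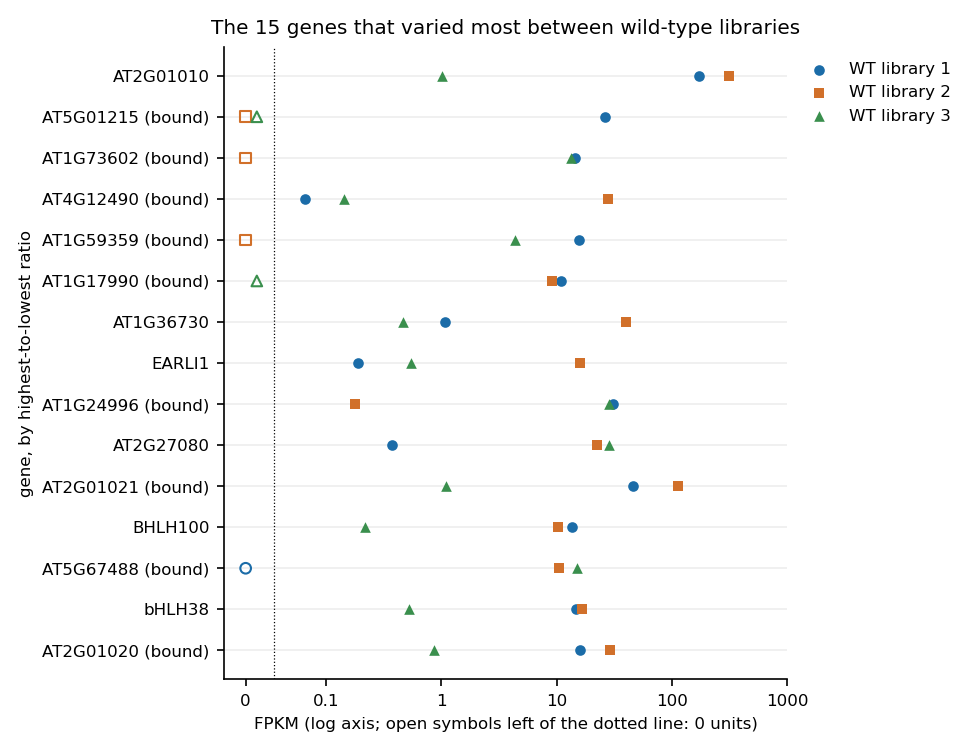
FPKM of the 15 genes with the largest ratio between WT libraries on a log axis, 1 symbol per library, with open symbols for 0 units and the word bound where the ratio is a lower bound. BHLH100 and bHLH38 are low in library 3, and AT4G12490 and EARLI1 are high in library 2.

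Library 3 stood apart most often. It was the lowest by the wider gap in 34 of the 85 genes and the highest in 18, against 13 and 7 for library 2 and 10 and 3 for library 1. The following genes were chosen after their values were seen. Genes low in library 3 included the camalexin enzyme PAD3 (39.2, 51.9 and 9.84 FPKM), the indole glucosinolate methyltransferases IGMT1 (12, 14.4 and 1.29 FPKM) and IGMT4 (151, 106 and 28.6 FPKM), the immune regulator EDS1 (13.7, 11.0 and 3.09 FPKM), PDF1.2 and OPR3. Genes high in library 3 included the wall enzyme XTH25 (0.709, 2.54 and 13.3 FPKM), LTP3 (8.52, 8.82 and 42.5 FPKM), the sugar exporter SWEET4 (3.77, 7.80 and 20.2 FPKM) and the ribonuclease RNS1 (10.2, 13.7 and 53.8 FPKM). Jasmonate genes did not move one way. Lowest in library 3 were OPR3, PDF1.2, MYC2, LOX4, AOC3, OPCL1, FAMT, TAT3, JAZ1, JAZ2 and JAZ6, among others. LOX2, CLH1, ARGAH2, CORI3, BGLU18, VSP1 and VSP2, among others, were highest there. The share of the jasmonate storage and defence markers was 1.54%, 1.72% and 1.91% in libraries 1, 2 and 3. That of all jasmonate lists was 5.02%, 6.03% and 5.38%, highest in library 2. On the same values, 25 genes passed 4-fold with library 3 left out, against 54 without library 1 and 52 without library 2. These counts restate the pattern above and add no separate evidence for it. Library 3 also had the smallest unit total of the 3, and the part of depth in this was not tested. OPR3, at 4.37-fold, varied in the other lines as well, by 3.28-fold between the VQ28KO12 libraries and 3.16-fold between the VQ28OE9 libraries. PetM (AT2G26500), a small subunit of cytochrome b6f, was the 1 photosynthesis gene past 4-fold, at 24.1, 110 and 27.5 FPKM. It varied in the other lines too, at 120, 119 and 23.5 FPKM in the VQ28KO12 libraries and 29.5, 117 and 30.1 FPKM in those of VQ28OE9.

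The gene on which the series turns varied in the wild type too. AT4G20000, annotated as a VQ motif protein and taken as VQ28 from the published numbering of the family, stood at 8.70, 0.456 and 6.72 FPKM in the WT libraries, a ratio of 19.1 with library 2 low. The same gene had 8.36, 10.1 and 0 FPKM in the VQ28KO12 libraries and 6244, 4665 and 5942 FPKM in the VQ28OE9 libraries. Of the libraries labelled as knockout, 1 lay above every WT library, 1 among them and 1 at 0.

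Some genes that varied in WT also varied in the other lines. Of 64 genes past 4-fold in WT with at least 5 FPKM in VQ28KO12, 16 (25.0%) passed it there too, which is 45.7% of the 35 that did so in VQ28KO12, against 0.342% of the 10232 genes compared. For VQ28OE9 it was 19 of 66 (28.8%), or 33.9% of the 56 in that line, against 0.558% of 10034. AT1G36730 varied 45.5-fold between the VQ28KO12 and 59.2-fold between the VQ28OE9 libraries, and AT1G73602 by 110-fold and 349-fold. BHLH100 and bHLH38, by contrast, differed by 1.46-fold and 2.47-fold between the VQ28KO12 libraries and by 2.18-fold and 1.69-fold between the VQ28OE9 libraries.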

How the data were processed

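mRNA of 3 WT leaf libraries was described from the deposited table of 33610 genes, with the other 6 libraries as side values. The table gives FPKM, which the authors computed before they deposited it, and an estimated count per gene, which the authors deposited as whole numbers. Low counts pile up at multiples of 4 (52.6% to 56.0% of them in the WT libraries), so counts are called units and about 4 are read as 1 fragment. The aligner, the counter, the treatment of reads with several matches and the genome build are not named in the sources used here. Genes with 0 units are listed at 0.0001 FPKM and are written as 0 here. The WT libraries hold about 17755835, 16980756 and 16138151 fragments.

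Shares were taken of FPKM summed over all genes of a library. Lists, families and markers were matched by symbol, locus or description, and 28932 of the genes were matched by locus to the RefSeq gene table. The members and lists were chosen with earlier results of these data known. The lists of jasmonate synthesis, jasmonate repressors and turnover, carbonic anhydrase, glutathione S-transferases and the sulfur genes were added after the levels had been seen. Genes named are the 30 highest by mean FPKM, the 3 highest of each list, the members of each family, the 15 largest ratios between libraries, and the markers, and any other is named for its level or its place in a list. A gene of the plastid ribosome list is not reported here. Ratios between libraries used genes with a mean of at least 5 FPKM, with a floor of 12 units. The procedure was run on simulated counts with Poisson counting error only. Those hold no other variation between libraries and no reads shared by copies, so they cannot show how the rule acts under either. Pairs of coding sequences came from blastn 2.17.0, in place of the protein pairs first planned. Promoters and coding sequences are from RefSeq, build TAIR10.1. Python 3.11.15, numpy 2.4.6, pandas 2.3.3, Biopython 1.88 and matplotlib 3.10.9 were used, and edgeR 4.0.16 and DESeq2 1.42.0 under R 4.3.3 gave scaling alternatives only.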

Additional observations from a re-analysis of the deposited data

How the results depend on the processing

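On count units in place of FPKM, the share of the 100 most abundant genes was 34.2% instead of 40.7%, that of nuclear photosynthesis genes 24.1% instead of 30.6% and that of cytosolic ribosomal protein genes 0.919% instead of 1.45%. With 1 WT library left out at a time, these shares ranged over 40.2% to 41.5%, 30.0% to 31.7% and 1.42% to 1.5%. The number of expressed genes ranged over 15260 to 15444, and the families with both a silent and an abundant member stayed at 6. Both rules must hold in every library kept, so neither count could fall when a library was left out. The count of 85 genes past 4-fold depended on its limits: it was 25 to 54 with 1 library left out, 230 at a mean of at least 1 FPKM, 18 at a mean of at least 20 FPKM and 676 at 2-fold. Scaling by edgeR's TMM or DESeq2's size factors gave 91 each, with 82 shared, and ratios of FPKM + 1 gave 59. Ratios of low genes are limited by counting error, and shares within near-identical copies by the division of reads. No paired analysis was possible because no result comes from a test between groups.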
